A study of Oryza sativa with 12 samples.

Results

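The asp1-10 and fon2-3 single mutants of rice were compared with each other, gene by gene, in dissected inflorescence meristems. The comparison used the 3 arrays titled asp1-10 and the 3 titled fon2-3, 6 of the 12 arrays of the study, and covered every gene with a probe that lists that gene alone. These were 15140 genes, each represented by its probe with the highest mean. The other 6 arrays, 3 of wild type (WT) and 3 of the double mutant fon2-3 asp1-fe, are shown beside them and share in the estimate of the spread. All plants were raised in outdoor pots. The tissue was cut out under a microscope at an early stage of the inflorescence and kept a few bracts. The double mutant carries a different asp1 allele, asp1-fe, so it is not asp1-10 with fon2-3 added. The labels give neither the lesion of any allele nor the cultivar, and they do not say whether replicates came from separate plants or how many meristems were pooled. The p-values therefore measure only the spread between these samples.

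A grass inflorescence meristem produces branches and then spikelets while keeping a pool of undifferentiated cells. FON2 encodes a secreted peptide of the CLAVATA3 type, which acts through the receptor kinase FON1 to restrain that pool. ASP1 encodes a corepressor of the TOPLESS type, a protein that has no DNA-binding domain of its own and is brought to genes by transcription factors and by repressors such as the Aux/IAA proteins of auxin signalling. The comparison asks where the transcript profile of a line with a weakened peptide signal differs from that of a line with a weakened corepressor. The mutated genes FON2 and ASP1 were not analysed here, because no probe could be tied to them by name, so the genotypes were not checked against them.

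Signals are log2 values as deposited. The median over all probes and arrays was 5.549, and a gene whose genotype mean lay under it was not shown to exceed background. Array medians ran from 5.51 to 5.60. Meristem marker genes were measured for 5 of 6 (OSH1, OSH15, OSH71, FON1 and WOX4), and all 5 had means above that level. Their mean per array lay between 6.87 and 7.49 in fon2-3 and between 7.17 and 7.30 in asp1-10. Photosynthetic markers of leaf and bract (5 of 7 measured) averaged 4.21 to 4.40 in the fon2-3 arrays and 4.08 to 4.86 in the asp1-10 arrays, and floral organ markers (7 of 13 measured) 3.40 to 3.505 and 3.48 to 3.65. Anther and tapetum markers (3 of 6 measured) averaged 5.68 to 5.74 in fon2-3 and 5.77 to 6.22 in asp1-10, so those ranges did not overlap. Vascular markers were measured for 2 of 3. Means above 5.549 were found for 2 of the 5 photosynthetic, 2 of the 7 floral, 1 of the 3 anther and 1 of the 2 vascular markers. The other members of these 4 lists averaged below that level, so their ranges say little about the tissue. No marker of any of these lists passed the adjusted test, and 1, UDT1 of the anther list, had an unadjusted p under 0.05 (limma). In such bulk samples, fewer cells of a type and less RNA per cell cannot be told apart.

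Replicate 3 of asp1-10 resembled the fon2-3 arrays and the double mutant arrays alike more than its own replicates. Over all probes it correlated at a mean of 0.983 with fon2-3, of 0.983 with the double mutant and of 0.975 with asp1-10 replicates 1 and 2. Over genes, asp1-10 replicates 1 and 2 both lay at least 1 log2 unit outside the fon2-3 range for 75 genes, 65 above it and 10 below it. Replicate 3 lay inside the fon2-3 range for 26 of these (34.7%), all 26 among the 65. The same count was 6 of 32 (18.8%) for fon2-3 replicate 2 and 0 for each of the remaining 4 arrays. The results that turn on replicate 3 are therefore given with it and without it. Since it was singled out for lying near fon2-3, leaving it out favours small p-values. Every adjusted p without it is a description only.

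With all 12 arrays the test found few genes. A difference was called at an adjusted p under 0.05 (limma, Benjamini-Hochberg over all 54922 probes), and 6 probes (0.0109%) were called, 1 higher and 5 lower in asp1-10. Of the 15140 genes 3 were called (0.0198%). ASPR2 was higher in asp1-10, 1 gene (0.00661%), and LOC4335004 and LOC4333361 were lower, 2 genes (0.0132%). The count was 107 genes (0.707%) without asp1-10 replicate 3, and 0 genes without asp1-10 replicate 1, fon2-3 replicate 1, fon2-3 replicate 3 or WT replicate 3. It was also 0 genes with the replicate number as a block, and with the 6 compared arrays fitted alone. In that fit of 6 arrays the limma adjusted p was 0.358 for ASPR2 and 0.298 for LOC4335004 and LOC4333361. The 3 calls thus depended on the WT and double mutant arrays in the estimate of the spread. At an unadjusted p under 0.05 there were 1667 genes (11.0%), 635 higher (4.19%) and 1032 lower (6.82%). The 3 arrays of asp1-10 lay wholly above the 3 of fon2-3 for 863 genes (5.70%) and wholly below them for 1443 (9.53%), 2306 in all (15.2%). The median difference over all genes was -0.02 log2 units, and the differences ran from -2.10 to 3.64. With 3 arrays against 3, the smallest two-sided p of an exact permutation test is 0.1, and no single gene was tested by one.

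**Figure D1:**
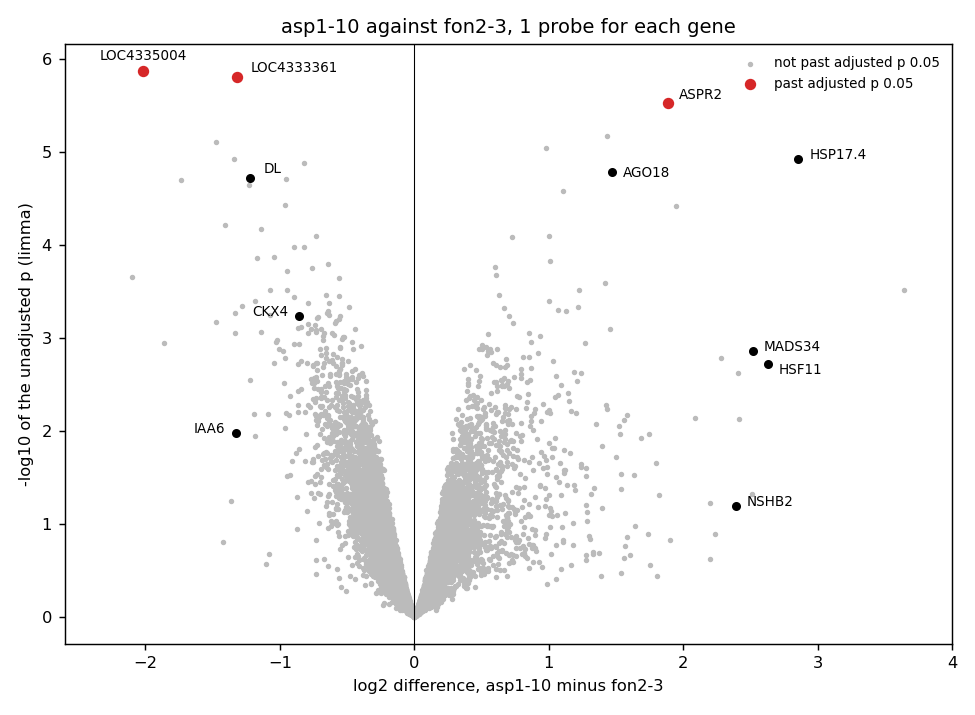
Log2 difference between asp1-10 and fon2-3 (x axis, positive where asp1-10 is higher) against −log10 of the unadjusted limma p (y axis) for 15140 genes, 1 point a gene. The 3 red points passed the adjusted test, LOC4335004 and LOC4333361 on the left and ASPR2 on the right, while HSP17.4, AGO18 and DL lay just short of it and HSF11, MADS34 and NSHB2 had large differences with larger p.

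ASPR2, the second ASP1-related gene of rice by its symbol and so a corepressor of the family to which ASP1 belongs, was the called gene that was higher in asp1-10. It read 8.39, 9.45 and 9.03 on the fon2-3 arrays and 11.02, 10.84 and 10.68 on the asp1-10 arrays. WT read 8.74, 8.74 and 8.78, and the double mutant 10.88, 10.75 and 11.13. The 6 arrays with an asp1 allele were thus all above the 6 without one, and the groups did not overlap. The difference between asp1-10 and fon2-3 was 3.70-fold (log2 1.89, SE 0.221, n = 3 per group, limma adjusted p = 0.0332). ASPR2 also rose in asp1-10 against WT (adjusted p = 0.00698) and in the double mutant against fon2-3 (adjusted p = 0.0284). Its adjusted p was 0.62 for fon2-3 against WT and 0.972 for the double mutant against asp1-10. The comparisons share arrays and are not independent of one another.

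ASPR1, the other measured gene of that corepressor list, read 11.24, 11.33 and 11.30 in fon2-3 and 11.34, 11.44 and 11.29 in asp1-10. Its difference was 0.06, with a 95% confidence interval from -0.14 to 0.26 and an adjusted p of 0.869. The ASPR1 arrays of the groups overlapped. Of the 2 measured corepressor genes, 1 passed the test.

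LOC4335004 and LOC4333361, which the gene table lists by locus number only, were the called genes that were lower in asp1-10. LOC4335004, on chromosome 4, read 6.22, 6.37 and 6.96 in fon2-3 and 4.78, 4.62 and 4.11 in asp1-10, with WT at 6.10, 5.70 and 5.80 and the double mutant at 5.76, 5.505 and 5.55. Every asp1-10 array of LOC4335004 lay below all the other 9 arrays. The difference was 4.05-fold (log2 -2.02, SE 0.218, limma adjusted p = 0.0213), and since the asp1-10 mean of 4.50 was not shown to exceed background, it can be too small.

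LOC4333361, on chromosome 3, read 7.77, 7.55 and 7.85 in fon2-3 and 6.20, 6.62 and 6.39 in asp1-10. WT lay between them at 6.93, 7.20 and 7.07, and so did the double mutant at 7.29, 7.39 and 7.07. The groups of single mutants did not overlap, and the difference was 2.49-fold (log2 -1.32, SE 0.144, limma adjusted p = 0.0213). LOC4333361 moved both ways against WT, with a log2 change of -0.66 in asp1-10 (adjusted p = 0.0424) and of 0.65 in fon2-3 (adjusted p = 0.0325). For LOC4335004 the adjusted p against WT was 0.0185 in asp1-10 and 0.105 in fon2-3.

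The other 3 called probes had no gene listed and were all lower in asp1-10. The one with the smallest adjusted p, 0.000218, read 8.11, 7.39 and 8.06 in fon2-3 and 4.69, 4.78 and 4.69 in asp1-10. WT read 3.99, 4.47 and 4.47 there, and the double mutant 7.93, 8.14 and 8.13. Its signal was therefore high on the 6 arrays with the fon2-3 allele and low on the 6 without it. The difference was -3.13 on the log2 scale, and since the asp1-10 mean of 4.72 was not shown to exceed background, it can be too small. Of the others, one differed by -1.17 (adjusted p = 0.0213), with all 3 asp1-10 arrays below the other 9, and one by -1.56 (adjusted p = 0.0439).

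**Figure D2:**
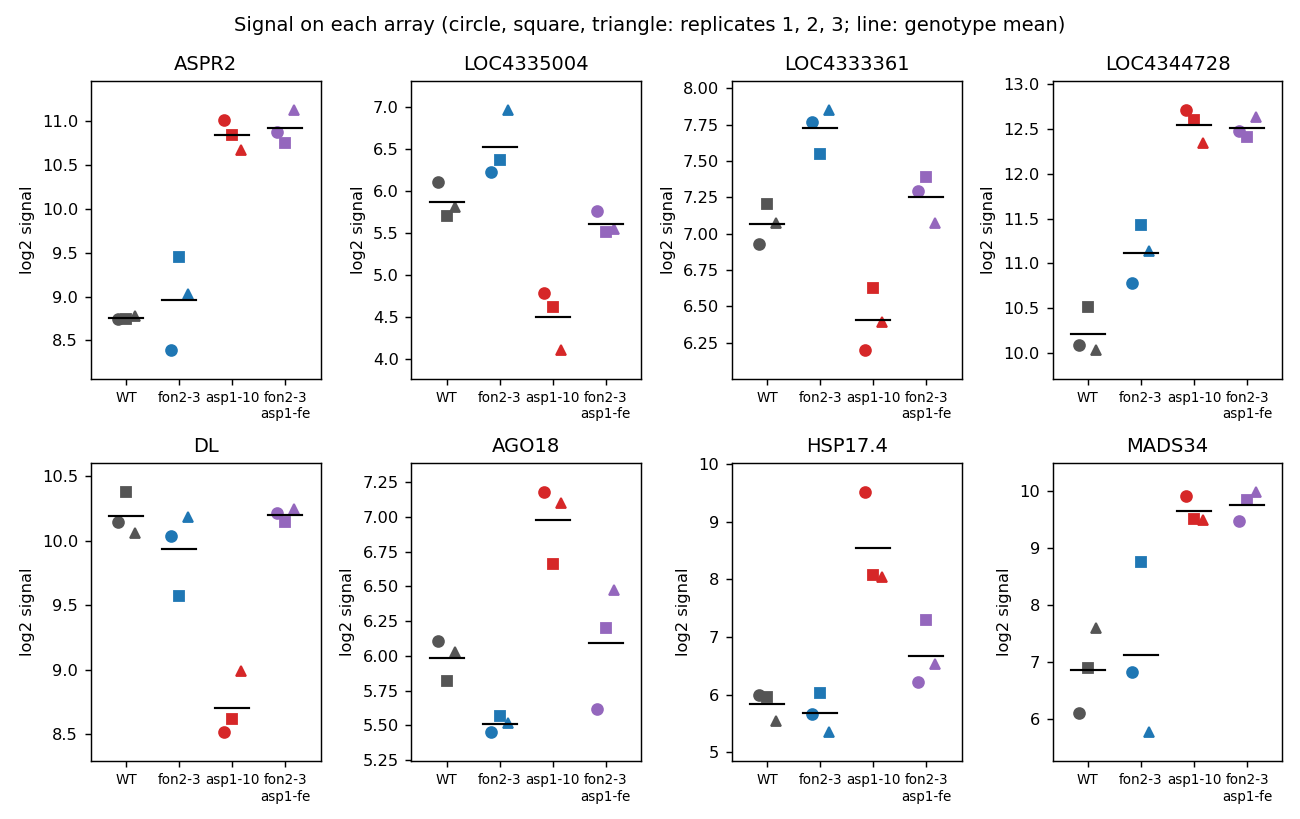
Log2 signal (y axis) of 8 genes on each of the 12 arrays by genotype (x axis), with circles, squares and triangles for replicates 1, 2 and 3 and a line at the genotype mean. ASPR2, LOC4344728 and MADS34 were high in asp1-10 and in the double mutant alike, whereas LOC4335004, LOC4333361 and DL were low in asp1-10 but not in the double mutant.

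A row of genes fell just short of the threshold, and none of them is counted as changed between the single mutants on all 12 arrays. Where an adjusted p without asp1-10 replicate 3 is given, that array was left out because of its readings. Such a p does not make a gene called. LOC4344728, on chromosome 8 and without a name in the gene table, read 10.78, 11.42 and 11.14 in fon2-3 and 12.72, 12.60 and 12.35 in asp1-10 (log2 difference 1.44, adjusted p = 0.0514). It rose in both single mutants against WT, by 2.34 in asp1-10 (adjusted p = 0.00263) and by 0.90 in fon2-3 (adjusted p = 0.0267). The double mutant read 12.48, 12.42 and 12.64, at the level of asp1-10. Without asp1-10 replicate 3 its difference was 1.54 (adjusted p = 0.0177). Since the gene table gives no name for it, whether LOC4344728 is itself one of the mutated genes was not tested. LOC4325412 was low in asp1-10, at 6.01, 6.21 and 5.95, and in the double mutant, at 6.04, 6.03 and 5.71. It read 7.31, 7.42 and 7.85 in fon2-3 and 7.42, 7.34 and 6.81 in WT, and fon2-3 against WT gave 0.34 (adjusted p = 0.313). Its difference between the single mutants was -1.48 (adjusted p = 0.0514), and it fell in the double mutant against fon2-3 by 1.60 (adjusted p = 0.0382). LOC4340998 was 0.98 higher and LOC4338459 1.34 lower in asp1-10 (log2 difference -1.34), each with adjusted p = 0.0514. The asp1-10 mean of LOC4338459, 5.15, was not shown to exceed background.

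DL (DROOPING LEAF), a YABBY transcription factor known for specifying the carpel and the leaf midrib, read 10.04, 9.57 and 10.18 in fon2-3 and 8.52, 8.62 and 8.99 in asp1-10. WT read 10.14, 10.38 and 10.06 and the double mutant 10.22, 10.14 and 10.24, so that the 3 asp1-10 arrays lay below the other 9. The DL difference between the single mutants was -1.22 (SE 0.173), with an adjusted p of 0.0547, and without asp1-10 replicate 3 it was -1.36 (adjusted p = 0.0177). DL fell in asp1-10 against WT (log2 -1.49, adjusted p = 0.00805) and was higher in the double mutant than in asp1-10 (log2 1.49, adjusted p = 0.0219). Against WT, fon2-3 gave -0.26 (adjusted p = 0.396). The asp1 allele differs between asp1-10 and the double mutant, so the allele and the added fon2-3 cannot be told apart in that last comparison.

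AGO18, an Argonaute protein of the kind that binds small RNAs and is known in rice for antiviral defence, read 5.45, 5.57 and 5.52 in fon2-3 and 7.18, 6.66 and 7.10 in asp1-10. WT lay between, at 6.11, 5.82 and 6.03. The AGO18 difference was 1.47 (SE 0.205, adjusted p = 0.0547), or 1.41 without asp1-10 replicate 3 (adjusted p = 0.0371), and against WT it rose in asp1-10 by 0.99 (adjusted p = 0.0372). The fon2-3 mean of 5.51 was not shown to exceed background, so the difference between the single mutants can be too small. The double mutant spread from 5.62 to 6.47. HSP17.4, a small heat shock protein, read 5.67, 6.03 and 5.35 in fon2-3 and 9.51, 8.07 and 8.03 in asp1-10, and it is described with its list further on.

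Few genes set the double mutant apart from either single mutant. Against asp1-10, 3 genes (0.0198%) were higher in the double mutant, LOC4326339, DL and LOC4341024. Against fon2-3, ASPR2 and LOC4326339 were higher, 2 genes (0.0132%), and LOC4325412 was lower, 1 gene (0.00661%). LOC4341024 read 6.57, 6.45 and 6.53 in fon2-3 and 5.53, 5.91 and 5.64 in asp1-10 (difference -0.82, adjusted p = 0.0518), and the double mutant sat at 6.70, 6.63 and 6.67. LOC4326339 overlapped between the single mutants, at 4.23, 4.01 and 3.69 in fon2-3 and 3.88, 3.45 and 3.98 in asp1-10. It read 6.51, 7.00 and 7.08 in the double mutant, higher than in asp1-10 by 3.09 (adjusted p = 0.000591) and than in fon2-3 by 2.89 (adjusted p = 0.00184). The single-mutant means of LOC4326339 were not shown to exceed background, so these differences can be too small.

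Against WT, 592 genes rose (3.91%) and 274 fell (1.81%) in fon2-3, while 212 rose (1.40%) and 156 fell (1.03%) in asp1-10. Both comparisons use the same WT arrays, so an overlap between them is not given as a result. Among the 12 named genes with the smallest p in the higher direction, all with 3 asp1-10 arrays above the 3 of fon2-3, 7 were called in asp1-10 against WT and 0 in fon2-3 against WT. Among the 12 in the lower direction, 2 were called in asp1-10 against WT and 5 in fon2-3 against WT. These genes were taken by their p in the comparison of the single mutants, and the counts only say on which side of WT each stands.

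Of the 12 named genes read higher in asp1-10, ASPR2 alone passed the adjusted test. Their differences ran from 0.41 to 2.86 and their adjusted p from 0.0332 to 0.28. OsPP2C11, a protein phosphatase of type 2C, read 7.90, 7.64 and 7.97 in fon2-3 and 8.39, 8.45 and 8.46 in asp1-10 (difference 0.60, adjusted p = 0.125). OsSUS4, a sucrose synthase that splits sucrose, read 6.38, 7.12 and 6.29 in fon2-3 and 7.70, 7.41 and 7.27 in asp1-10 (difference 0.86, adjusted p = 0.239). The sugar-phosphorylating hexokinase listed as HXK4 (LOC4342654) differed by 0.79 (adjusted p = 0.28), and its fon2-3 mean of 5.13 was not shown to exceed background. NH2, a homologue of the salicylic acid coactivator NPR1, differed by 0.48, OsY14b, of the exon junction complex, by 0.81, and osysl7, a transporter of the yellow stripe-like family, by 0.41.

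Of the 12 named genes read lower in asp1-10, 0 passed the adjusted test, and their adjusted p ran from 0.0547 to 0.293 (limma). CKX4, a cytokinin oxidase that degrades cytokinin, read 5.75, 5.62 and 6.05 in fon2-3 and 4.76, 4.93 and 5.15 in asp1-10, with WT at 4.92, 5.08 and 4.80. OsSCR, a GRAS protein named after SCARECROW of root and leaf patterning in Arabidopsis, read 4.78, 4.96 and 4.77 in fon2-3 against 4.29, 3.46 and 4.18 in asp1-10 and 3.64, 3.66 and 3.56 in WT. OsC3H34, a zinc finger protein of the CCCH type, read 7.31, 7.05 and 7.38 in fon2-3 against 6.50, 6.55 and 6.76 in asp1-10. These 3 genes had asp1-10 nearer to WT than fon2-3 was, and all 3 rose in fon2-3 against WT, CKX4 by 0.87 (adjusted p = 0.0281), OsSCR by 1.22 (adjusted p = 0.0163) and OsC3H34 by 0.60 (adjusted p = 0.0338). All genotype means of OsSCR, and the WT and asp1-10 means of CKX4, were not shown to exceed background, so the sizes of those rises are uncertain.

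PRR37, a pseudo-response regulator of the circadian clock that also delays heading, was arranged otherwise. It read 9.37, 9.63 and 9.42 in fon2-3 and 8.84, 9.10 and 8.79 in asp1-10, both below the WT readings of 10.00, 9.87 and 9.97. PRR37 fell against WT in asp1-10 by 1.04 (adjusted p = 0.00805) and in fon2-3 by 0.48 (adjusted p = 0.0462), and its difference between the single mutants was -0.56 (adjusted p = 0.207). The hour of sampling is not given in the labels, so its part in a clock gene was not tested. KIN5A (a kinesin motor protein of the mitotic spindle class) differed by -0.55, bHLH081 (a helix-loop-helix factor) by -0.98, EXLA4 (an expansin-like protein) by -0.64 and AP2-4 (an APETALA2-type factor) by -0.73. BRL1, a homologue of the brassinosteroid receptor, differed by -0.80, and DAF1, a receptor-like kinase, by -0.73. All genotype means of BRL1 and the asp1-10 mean of AP2-4 were not shown to exceed background, so the sizes of those differences are uncertain.

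No measured gene of the FON2 pathway or of meristem identity was called between the lines at this number of arrays. FON1, the receptor kinase of the CLAVATA1 type, read 6.47, 7.66 and 6.37 in fon2-3 and 6.86, 6.81 and 7.20 in asp1-10. Its difference was 0.13, with an interval from -0.72 to 0.97 and adjusted p = 0.947, and without fon2-3 replicate 1 or replicate 3 it turned to -0.06 and -0.11. WOX4, a WUSCHEL-type homeobox gene of meristem maintenance, read 5.92, 5.76 and 5.55 in fon2-3 and 5.87, 5.94 and 5.79 in asp1-10 (difference 0.13, interval from -0.12 to 0.37). The readings of both genes overlapped between the groups. Of the 6 measured genes of the meristem and CLAVATA-WUSCHEL list 0 passed the adjusted test and 0 had an unadjusted p under 0.05, and the median difference was 0.11. All 6 differences were positive, from 0.02 to 0.22, where 6840 of all 15140 genes had a positive one. In 1 of the 6 the asp1-10 arrays lay wholly above the fon2-3 arrays, as in 5.70% of all genes.

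KNOX homeobox genes, which keep meristem cells undifferentiated, stood near each other in the single mutants. OSH1 read 8.00, 8.79 and 8.37 in fon2-3 and 8.39, 8.68 and 8.45 in asp1-10, OSH15 7.43, 8.18 and 7.84 against 7.88, 8.02 and 7.86, and OSH71 6.53, 7.08 and 6.67 against 6.83, 6.91 and 7.20. Their differences were 0.12 (interval from -0.39 to 0.63), 0.10 (from -0.46 to 0.65) and 0.22 (from -0.30 to 0.75), and all 3 overlapped. Those of OSH1 and OSH15 turned to -0.07 and -0.10 without fon2-3 replicate 1. Over the 7 measured genes of the list the median difference was 0.14, and 0 passed the adjusted test or the unadjusted one. All 7 differences were positive, from 0.05 to 0.54, and in 1 gene the asp1-10 arrays lay wholly above the fon2-3 arrays (5.70% of all genes). Against WT, OSH15 rose in asp1-10 (1.15, adjusted p = 0.0436) and in fon2-3 (1.06, adjusted p = 0.0407), and OSH71 rose in asp1-10 (adjusted p = 0.0283) and in fon2-3 (1.07, adjusted p = 0.0333). The median over the list against WT was 0.805 in asp1-10 and 0.685 in fon2-3.

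Panicle regulators were spread in both directions. MADS34, a SEPALLATA-like factor that limits branching and sets spikelet fate, read 6.84, 8.75 and 5.78 in fon2-3 and 9.92, 9.51 and 9.50 in asp1-10. The double mutant read 9.47, 9.84 and 9.98 and WT 6.12, 6.90 and 7.60. The asp1-10 arrays lay above all fon2-3 arrays, but the fon2-3 arrays were far apart (SD 1.51), and the MADS34 difference of 2.52 had an adjusted p of 0.25. Against WT, MADS34 rose in asp1-10 by 2.77 (adjusted p = 0.0417), and fon2-3 gave 0.25 (adjusted p = 0.838). APO2, the rice LEAFY homologue that promotes branching, read 8.37, 9.26 and 8.50 in fon2-3 and 9.70, 9.36 and 9.56 in asp1-10 (difference 0.83, interval from 0.30 to 1.37, adjusted p = 0.349).

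LAX1, a helix-loop-helix factor needed for axillary meristems, read 5.42, 9.33 and 4.98 in fon2-3 and 8.09, 7.62 and 7.99 in asp1-10. A single fon2-3 array, replicate 2, lay above all asp1-10 arrays and the other two far below, and the interval ran from -0.87 to 3.52. Replicate 2 was also the highest fon2-3 array for FON1, OSH1, OSH15, OSH71, MADS34 and APO2. FZP, an ERF factor that ends branching by fixing the spikelet fate, lay below 5.549 everywhere, at 3.11 to 3.27 in fon2-3 and 3.21 to 3.43 in asp1-10. It was not shown to exceed background. Of the 11 measured genes of panicle branching and spikelets 0 passed the adjusted test, and 1 was higher and 2 were lower at an unadjusted p under 0.05, with a median of 0.17.

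The genes of known pathways were next described by list, against the background of all genes. The 33 lists held 392 measured genes, of which 1 (ASPR2) passed the adjusted test and 76 had an unadjusted p under 0.05. The members named from here on, other than those already named, were picked after their values had been seen, and none of them passed the adjusted test. Their unadjusted p-values come from limma and are to be read against the 4.19% of all genes that lay higher and the 6.82% that lay lower at the same p. Arrays without overlap are to be read against the 5.70% of all genes with asp1-10 wholly above and the 9.53% with it wholly below.

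The TCP and YABBY families each held genes with lower readings in asp1-10, none of them past the adjusted test. Of 6 TCP genes, a family that governs growth and cell division in lateral organs, 0 passed the adjusted test, while 4 were lower and 0 higher at an unadjusted p under 0.05. These were PCF5, PCF6, PCF7 and PCF8, and the median over the list was -0.44 against -0.02 for all genes. In 4 TCP genes, PCF1, PCF6, PCF7 and PCF8, the 3 asp1-10 arrays lay below the 3 of fon2-3, as they did in 9.53% of all genes. PCF5 read 7.03, 6.575 and 7.14 in fon2-3 and 5.89, 5.41 and 6.575 in asp1-10, so that its highest asp1-10 array and lowest fon2-3 array were level. PCF6 read 6.22, 6.05 and 5.97 in fon2-3 and 4.85, 5.61 and 5.74 in asp1-10 (difference -0.68, unadjusted p = 0.00678, adjusted p = 0.361). Against WT the list's median was 0.27 in fon2-3 and -0.05 in asp1-10.

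Among 6 YABBY genes, which mark the outer side of lateral organs in Arabidopsis, 0 passed the adjusted test and 3 were lower at an unadjusted p under 0.05, with a median of -0.325. Besides DL these were OsYAB4, at 8.22, 8.14 and 8.33 in fon2-3 and 7.75, 7.92 and 7.86 in asp1-10, and OsYAB1, at 4.57, 4.96 and 5.25 against 4.29, 4.46 and 4.43. The asp1-10 arrays lay below the fon2-3 arrays in all 3, as they did in 9.53% of all genes. OsYAB1 read below 5.549 in both lines, so it was not shown to exceed background.

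Genes of the Aux/IAA, cytokinin and brassinosteroid lists that had an unadjusted p under 0.05 (limma) read lower in asp1-10. The jasmonate list of 20 genes was arranged otherwise, with 3 higher and 1 lower at that p and 0 past the adjusted test. It had 10 positive and 10 negative differences and a median of -0.01. Of 19 Aux/IAA genes, the auxin-labile repressors that recruit corepressors of the TOPLESS type, 0 passed the adjusted test, and 5 were lower and 0 higher at an unadjusted p under 0.05. The median of the list was -0.03, beside -0.02 for all genes. IAA7 read 7.78, 7.76 and 7.70 in fon2-3 and 6.88, 6.89 and 7.31 in asp1-10 (difference -0.72, adjusted p = 0.267), and IAA6 read 7.86, 7.91 and 8.84 against 5.81, 6.98 and 7.83 (difference -1.33, adjusted p = 0.383). IAA10, IAA23 and IAA16 differed by -0.48, -0.63 and -0.47. IAA7 rose in fon2-3 against WT (0.85, adjusted p = 0.0294), whereas asp1-10 gave 0.13 there. Among 12 auxin response factors, which these repressors bind, 0 had an unadjusted p under 0.05, and the median was -0.01.

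In the cytokinin list 0 of 23 genes passed the adjusted test, and 5 were lower and 0 higher at an unadjusted p under 0.05, with a median of -0.10. OsRR1 and OsRR2, type-A response regulators that cytokinin induces and that damp its signal, read 7.89, 7.87 and 7.82 and 7.67, 7.64 and 7.76 in fon2-3. In asp1-10 OsRR1 read 7.25, 7.17 and 7.60 and OsRR2 7.18, 7.35 and 7.33. For both genes every asp1-10 array lay below every fon2-3 array, with differences of -0.52 and -0.40. LOGL6, of the enzyme family that activates cytokinins, differed by -1.18, and OsRR5 by -0.77 with its highest asp1-10 array, 5.14, level with the fon2-3 arrays.

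All 12 genes of the brassinosteroid list, which does not hold BRL1, had a negative difference, with a median of -0.28 and a range from -0.52 to -0.02, and 0 passed the adjusted test. At an unadjusted p under 0.05 there were 5 lower and 0 higher. BRI1, the brassinosteroid receptor, read 8.35, 8.37 and 8.53 in fon2-3 and 7.82, 8.09 and 8.33 in asp1-10. GSK2, the kinase that holds the pathway in check, read 9.81, 9.94 and 10.00 against 9.44, 9.60 and 9.73. In both, the highest asp1-10 array lay just under the lowest fon2-3 array. Genes that promote and genes that inhibit the pathway were thus both among those with a negative difference. Against WT the list's median was 0.27 in fon2-3 and 0.02 in asp1-10.

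Among growth genes most differences were negative and small. Of 38 cell cycle and replication genes 29 had a negative difference, 0 passed the adjusted test, and 6 were lower and 1 higher at an unadjusted p under 0.05, with a median of -0.17. RPA1B and RPA2A, subunits of the protein that coats single-stranded DNA in replication, differed by -0.59 and -0.69, and CYCD3-2, a D-type cyclin of the G1 phase, by -0.46. All 10 cytosolic ribosomal protein genes had a negative difference, with a median of -0.18 and a range from -0.32 to -0.03, and 0 had an unadjusted p under 0.05. Both medians were positive in fon2-3 against WT, at 0.21 and 0.17, and near 0 in asp1-10 against WT, at 0.03 and -0.02.

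**Figure D3:**
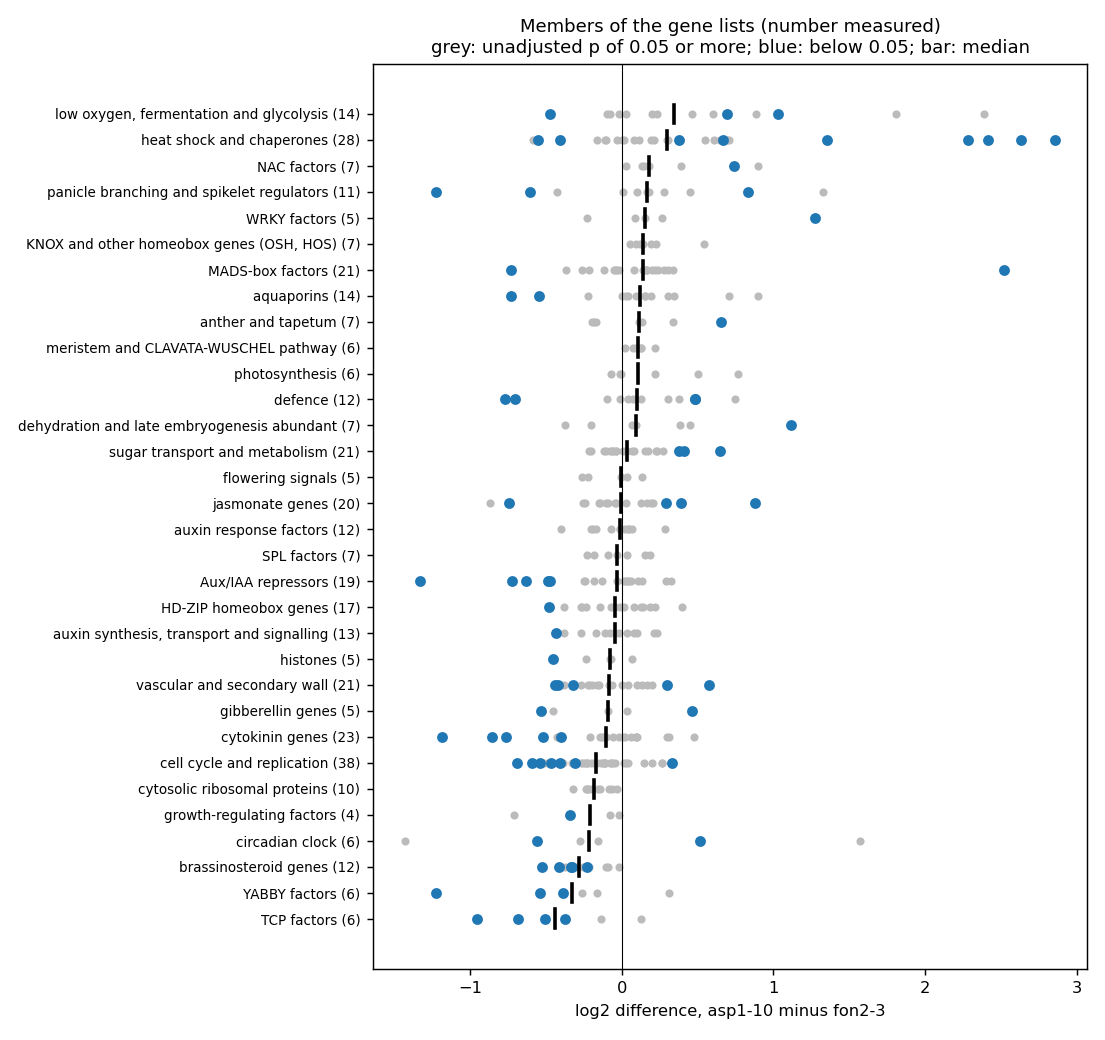
Log2 difference between asp1-10 and fon2-3 (x axis) for each measured member of the gene lists with at least 3 of them (y axis, number measured in brackets), in blue where the unadjusted p was under 0.05, with a bar at the list's median. The TCP, YABBY and brassinosteroid medians lay lowest, at -0.44, -0.325 and -0.28, and those of the low oxygen and heat shock lists highest, at 0.35 and 0.30, where single members reach beyond 2.

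Some heat shock genes read far higher in asp1-10, on some arrays more than on others, and a few read lower. Of 28 genes of heat shock and chaperones, which refold or dissolve damaged proteins, 0 passed the adjusted test, and 7 were higher and 2 lower at an unadjusted p under 0.05, with a median of 0.30. HSP17.4 was high on all 3 asp1-10 arrays, with a difference of 2.86 (SE 0.386, adjusted p = 0.0514), or 3.11 without replicate 3 (adjusted p = 0.0193), and it rose in asp1-10 against WT (2.71, adjusted p = 0.0133). HSF11, a heat shock transcription factor, read 4.16, 4.18 and 4.06 in fon2-3 and 8.50, 6.96 and 4.84 in asp1-10. HSP16.9C, a small heat shock protein, read 5.37, 4.56 and 5.07 against 8.67, 7.50 and 5.67. In both genes replicate 1 was highest, replicate 2 lay below it and replicate 3 was nearest to the fon2-3 arrays.

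The differences of HSF11 and HSP16.9C were 2.63 (adjusted p = 0.27) and 2.28 (adjusted p = 0.258). Their fon2-3 means, 4.13 and 5, were not shown to exceed background, so these differences can be too small. Without asp1-10 replicate 3 they were 3.60 (adjusted p = 0.00735) and 3.08 (adjusted p = 0.0081), and 4 genes of the list were called, HSF11, HSP16.9C, HSP17.4 and CLPB-C, with a median of 0.43. CLPB-C, a ClpB-type protein disaggregase, read 6.88, 7.49 and 7.03 in fon2-3 and 9.39, 8.67 and 7.40 in asp1-10. CLPB-M, another of that kind, read 5.79, 7.02 and 4.71 against 9.16, 8.33 and 7.26 (adjusted p = 0.363). Other heat shock factors went the other way, with HSF12 at 7.14, 7.16 and 7.59 in fon2-3 and 6.81, 6.70 and 6.74 in asp1-10 (difference -0.55, adjusted p = 0.31). The gene with the largest difference of all 15140, LOC4328933, had the same order of arrays as HSF11. It read 5.26, 5.82 and 4.89 in fon2-3 and 10.22, 9.84 and 6.82 in asp1-10 (difference 3.64, adjusted p = 0.153), and without replicate 3 it was called, at 4.71 (adjusted p = 0.00091). Its fon2-3 mean of 5.32 was not shown to exceed background, so its difference can be too small.

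Genes of low oxygen and fermentation varied widely within the genotypes. PDC1, a pyruvate decarboxylase of ethanol fermentation, differed by 1.81 with an interval from -2.37 to 5.99, since asp1-10 replicate 3 read 5.36 where replicates 1 and 2 read 11.71 and 11.46. The fon2-3 arrays of PDC1 spread from 5.81 to 9.55. NSHB2, a non-symbiotic haemoglobin, differed by 2.39 (interval from -0.17 to 4.95, adjusted p = 0.569), and by 3.71 without replicate 3 (adjusted p = 0.141). Its fon2-3 arrays read 4.95, 4.03 and 4.84, not shown to exceed background, so these differences can be too small. CIPK15, a protein kinase of the response to low oxygen and sugar, read 5.59, 4.72 and 4.99 in fon2-3 and 6.76, 5.93 and 5.70 in asp1-10, with no overlap (difference 1.03, adjusted p = 0.422). Of the 14 genes of the list 0 passed the adjusted test, 2 were higher and 1 was lower at an unadjusted p under 0.05, and the median was 0.35, or 0.59 without replicate 3.

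Leaving out asp1-10 replicate 3 raised the count of calls from 3 genes to 107 (0.707%), 60 higher (0.396%) and 47 lower (0.310%), and from 6 probes to 300 (0.546%). The 3 genes of the full comparison, ASPR2, LOC4335004 and LOC4333361, were among the 107. Of the 18 that had a name, 13 were higher and 5 lower. The higher ones beyond ASPR2 and the heat shock genes were SAT1, OsSAP5, OsPUB4, ABCC13, BZIP52, BBD2, AGO18 and UDT1. The lower ones were OsC3H67, DL, JAR1, DAF1 and bHLH081. JAR1, the enzyme family that joins jasmonate to isoleucine, read 8.64, 8.38 and 8.86 in fon2-3 and 7.52, 7.71 and 8.42 in asp1-10. UDT1, a factor of tapetum development and 1 of the 3 measured anther markers, read 4.91, 4.44 and 4.65 in fon2-3 and 5.70, 5.57 and 4.70 in asp1-10, replicate 3 again level with fon2-3. All genotype means of UDT1 lay below 5.549 and were not shown to exceed background. Replicate 3 was singled out by its readings, so the 107 genes are a description of the other arrays.

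SAT1 and BZIP52 illustrate how replicate 3 departed. SAT1 read 6.33, 5.62 and 6.31 in fon2-3, 8.82, 8.47 and 6.02 in asp1-10 and 8.48, 8.48 and 8.60 in WT. Replicates 1 and 2 of asp1-10 thus lay at the WT level and replicate 3 at the level of fon2-3 and of the double mutant, which read 6.76, 6.08 and 6.52. BZIP52, a bZIP transcription factor, read 7.04, 6.96 and 5.68 in asp1-10, 5.57, 5.08 and 5.54 in fon2-3 and 7.39, 8.33 and 7.39 in WT. There replicates 1 and 2 lay between fon2-3 and WT, and replicate 3 near fon2-3. Both genes fell in fon2-3 against WT (SAT1 adjusted p = 0.0366, BZIP52 adjusted p = 0.0163). OsSAP5, a zinc finger protein of the stress-associated A20/AN1 type, read 7.69 and 8.40 in asp1-10 replicates 1 and 2, above WT at 5.88, 6.11 and 6.43, and 5.41 in replicate 3. The state of the plants at sampling is not recorded array by array in the labels, and its part in these readings was not tested.

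**Figure D4:**
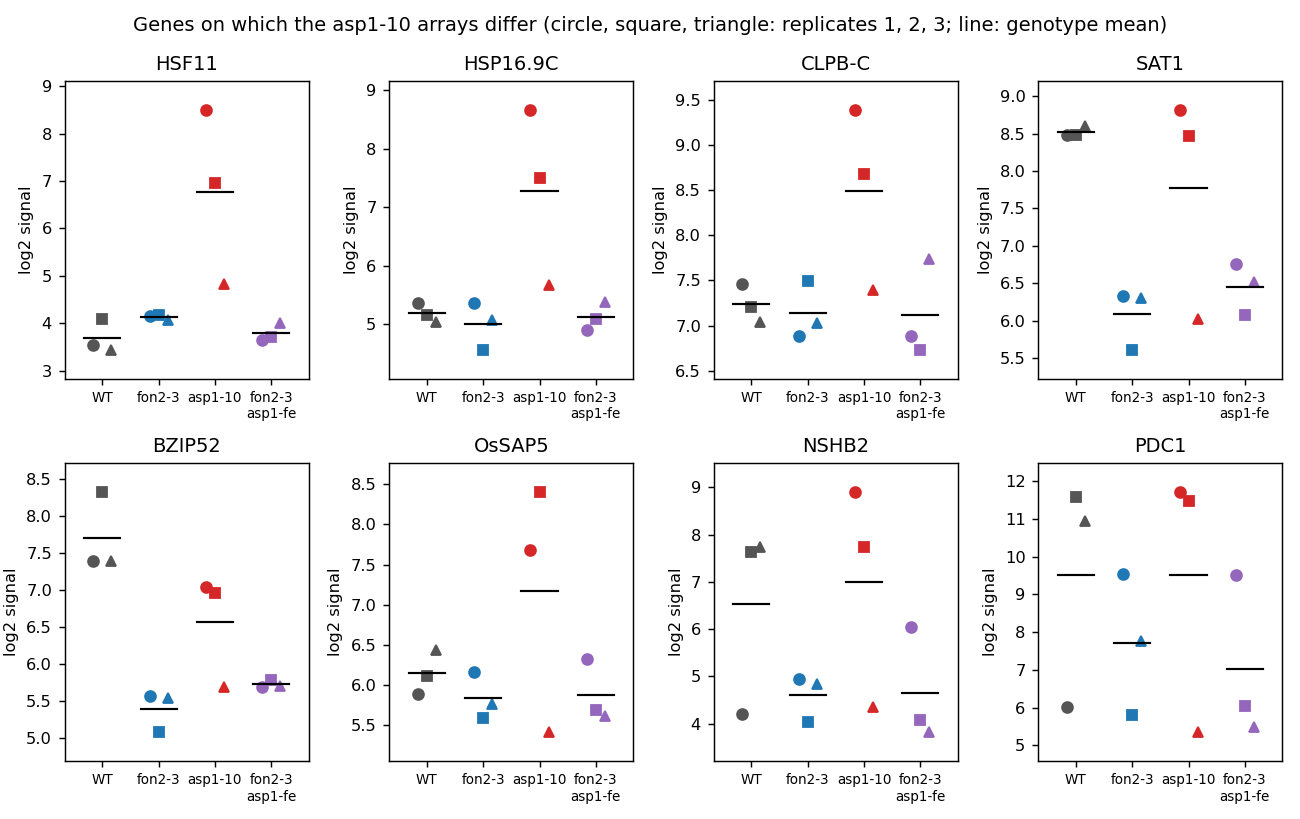
Log2 signal (y axis) of 8 genes on each of the 12 arrays by genotype (x axis), with circles, squares and triangles for replicates 1, 2 and 3 and a line at the genotype mean. In asp1-10 the triangle, replicate 3, was the asp1-10 array nearest to fon2-3 for all 8 genes while replicates 1 and 2 lay above, and for NSHB2 and PDC1 WT replicate 1 was low as well.

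The count of calls also moved when the fit was made on 1 probe per gene, with no probe that lacks a gene. That fit re-estimates the prior spread as well as adjusting over fewer tests, and in it 30 of 15140 genes passed, 11 higher and 19 lower in asp1-10, and they included the same 3. The named ones among the 30 were ASPR2 (adjusted p = 0.00756), HSP17.4 (0.0115), AGO18 (0.0125), DL (0.0125) and OsPP2C11 (0.0466). LOC4344728 and LOC4325412 were in that count too, each with an adjusted p of 0.0105. LOC4335176 and LOC4335173, which lie next to each other in the gene table with 0 genes between, were both lower in that fit. They read 6.58, 6.97 and 6.88 and 7.24, 7.54 and 7.58 in fon2-3 against 5.22, 5.75 and 5.23 and 6.17, 6.30 and 6.76 in asp1-10. The double mutant was low for this pair as well, at 5.26, 6.12 and 6.06 for LOC4335176 and 6.12, 6.39 and 6.63 for LOC4335173.

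The calls changed with the arrays in the fit. Without fon2-3 replicate 1, fon2-3 replicate 3, asp1-10 replicate 1 or WT replicate 3, 0 genes and 1 probe passed the adjusted test, with between 3412 and 5741 probes at an unadjusted p under 0.05. Without fon2-3 replicate 2, 7 genes were higher and 4 lower. The differences themselves kept their sign throughout: over the 24 alternatives that of ASPR2 ran from 1.61 to 2.13, that of LOC4335004 from -2.17 to -1.79, that of LOC4333361 from -1.43 to -1.22 and that of DL from -1.40 to -1.10. ASPR2 passed the threshold in 13 of the 24, LOC4335004 in 18, LOC4333361 in 17, AGO18 in 8, DL in 7 and HSP17.4 in 7. The 24 include the minimum log2 difference of 1 and the probe with the largest SD, which reused the main fit. ASPR2, LOC4335004 and LOC4333361 passed in both of these, which adds nothing to the main result. Their adjusted p ran from 0.00756 to 0.358 for ASPR2, from 0.00501 to 0.298 for LOC4335004 and LOC4333361, from 0.0125 to 0.298 for AGO18, from 0.0125 to 0.395 for DL and from 0.0115 to 0.358 for HSP17.4. HSF11 and HSP16.9C passed in 1 of the 24 each, without asp1-10 replicate 3, and otherwise reached 0.597 and 0.619 (limma).

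**Figure D5:**
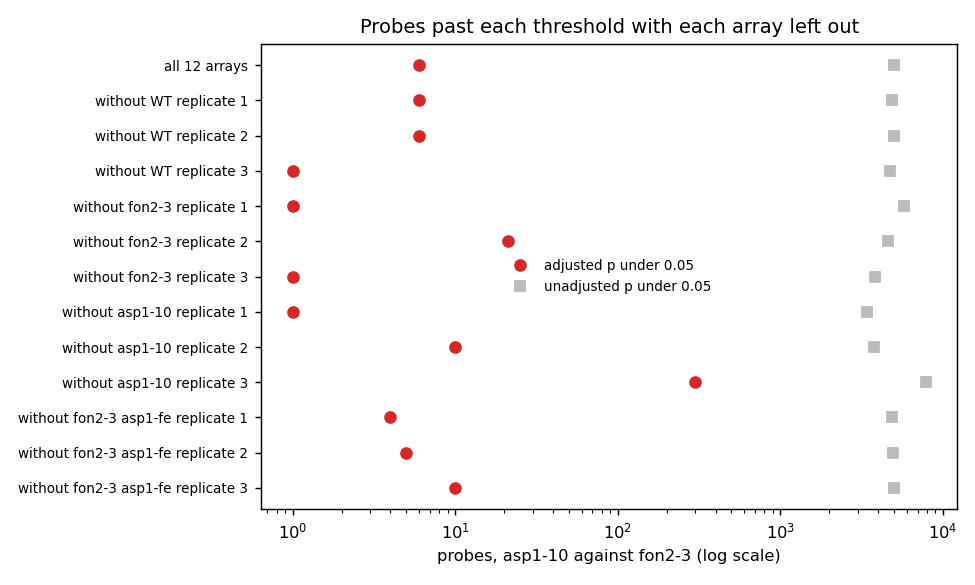
Number of probes (x axis, log scale) past an adjusted p of 0.05 (red circles) and past an unadjusted p of 0.05 (grey squares) for asp1-10 against fon2-3, with all 12 arrays and with each array left out (y axis). The red points lie between 1 and 21 except without asp1-10 replicate 3, where 300 probes passed.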

How the data were processed

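The values were the authors' deposited series table of log2 signals, 54922 probes on 12 one-colour Affymetrix arrays, made with Affymetrix Expression Console 1.3 per the submitters' processing notes. The log base was inferred from the range of the values. Not given in the sources used here are background correction, normalization, summarisation and genome build. The number of arrays limits the precision. The platform annotation listed 1 gene for 15829 probes, several for 440 and none for 38653. All 15140 genes were found in the RefSeq gene table of the assembly ASM3414082v1, used for names and gene order, and 1740 of them carried a gene name there rather than an identifier. Where a gene had several probes (627 genes), the highest mean over the arrays decided. Values of 7300 probes were identical to those of another probe.

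In limma 3.58.1 under R 4.3.3, all 12 arrays entered a fit of the 4 genotype means (lmFit, eBayes, 8 residual and 3.22 prior degrees of freedom). Tests were two-sided, with Benjamini-Hochberg adjustment over all probes at 0.05. On simulated data of 54922 probes for this comparison, 58 of 100 probes changed by 1 log2 unit and 90 of 100 changed by 2 were recovered, with 5 false calls. The text names the 12 higher and 12 lower named genes with the smallest p and no overlap between arrays, called genes first, up to 4 locus-number genes per direction, up to 4 called members per list and a core set. Genes outside that rule were chosen after their values were seen. Members and lists were chosen with earlier results of these data known. Of the listed members, 139 had no match. Lists are described by counts and medians beside all genes, with no list test. Alternatives were cyclic loess, quantile normalization or median centring between arrays, leaving out dim probes (below 5.549, the median of all values, in every genotype mean), fitting the 6 arrays alone, a robust prior with a variance trend, weights per array, a block for the replicate number, 1 probe per gene, identical probes once, a minimum log2 difference of 1, the probe with the largest SD, and leaving out each array.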

Additional observations from a re-analysis of the deposited data

How the results depend on the processing

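Against 6 probes, 1 gene higher and 2 genes lower in asp1-10, cyclic loess gave 14, 5 and 4, leaving out dim probes 41, 8 and 12, a variance trend with a robust prior 22, 5 and 8, array weights 13, 3 and 6, 1 probe per gene 30, 11 and 19, and identical probes kept once 23, 6 and 9. Quantile normalization gave 7, 2 and 2, and the 6 arrays alone 1, 0 and 0. Median centring, a minimum log2 difference of 1 and the probe with the largest SD left all 3 counts as they were. Leaving out 1 array gave 1 to 300 probes, 0 to 60 genes higher and 0 to 47 lower. The 300, 60 and 47 came without asp1-10 replicate 3. Without fon2-3 replicate 2 there were 21, 7 and 4, without asp1-10 replicate 2 there were 10, 0 and 3, and without double mutant replicate 3 there were 10, 3 and 3. Without WT replicate 3, fon2-3 replicate 1, fon2-3 replicate 3 or asp1-10 replicate 1 there were 1, 0 and 0. Without WT replicate 1 there were 6, 0 and 2, without double mutant replicate 1 there were 4, 1 and 1, and without its replicate 2 there were 5, 0 and 2. Without WT replicate 2 there were 6, 1 and 2. The 1 gene higher without WT replicate 2 or without double mutant replicate 1 was not ASPR2. Without double mutant replicate 1 LOC4333361 was not called either. The causes were not tested. Over the left-out arrays the difference of FON1 ran from -0.106 (without fon2-3 replicate 3; -0.057 without replicate 1) to 0.538, that of OSH1 from -0.074 to 0.324 and that of OSH15 from -0.097 to 0.278, the lowest of both without fon2-3 replicate 1, and none of these passed the test in either direction.

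With the replicate number as a block, 1 probe, 0 genes higher and 0 lower were called (4954 probes at an unadjusted p under 0.05). Deviations of same-numbered asp1-10 and fon2-3 arrays correlated at 0.104, -0.182 and -0.042, so the numbers were not taken to pair the samples. On simulated data 58 of 100 changes of 1 log2 unit were recovered, and a missing call does not show that a gene was equal. The simulated arrays had independent normal noise with 1 spread per probe for all genotypes, and no array that stood apart. Recovery in the real data can therefore be lower.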

Other observations

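The gene lists not described above also held 0 calls after adjustment, and their members were picked here after their values had been seen. Of 12 defence genes 2 were higher and 2 lower in asp1-10 at an unadjusted p under 0.05 (limma), with a median of 0.10. The NPR1 family, coactivators of the salicylic acid response, was split. NH2 was 0.48 higher, whereas NH1 read 7.31, 6.96 and 7.78 in fon2-3 and 6.36, 6.67 and 6.72 in asp1-10 (difference -0.77, adjusted p = 0.294), and NH4 read 6.25, 5.73 and 5.95 against 5.39, 4.95 and 5.47 (difference -0.70, adjusted p = 0.344). OsWRKY71, a WRKY factor of defence, read 6.80, 6.01 and 7.69 in fon2-3 and 8.11, 9.06 and 7.16 in asp1-10, where replicate 3 lay within the fon2-3 range (difference 1.28, adjusted p = 0.489). All 7 NAC factors had a positive difference, with a median of 0.18, and 1 of them, NAC074 at 0.74, had an unadjusted p under 0.05 (adjusted p = 0.292).

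OsSWEET4, a sugar exporter, read 10.17, 9.99 and 10.42 in fon2-3 and 10.87, 11.11 and 10.54 in asp1-10, with no overlap (difference 0.645, adjusted p = 0.294). It was 1 of 3 genes higher and 0 lower among 21 sugar genes at an unadjusted p under 0.05, whose median was 0.04. In the gibberellin list of 5, GA20OX3, a gibberellin synthesis enzyme, differed by -0.53 and SLRL1, a repressor of the DELLA type, by 0.465. The aquaporins NIP1-1 and NIP2-2 differed by -0.55 and -0.73, while the median over 14 aquaporins was 0.12. The MADS-box gene mads47 read 6.73, 6.59 and 7.13 in fon2-3 and 5.91, 5.99 and 6.37 in asp1-10, opposite in sign to MADS34 (difference -0.73, adjusted p = 0.296). MOF1, a MYB factor that keeps the spikelet determinate, read 8.01, 8.85 and 8.43 in fon2-3 and 7.32, 7.86 and 8.30 in asp1-10, which was 1.84 and 1.23 log2 units above WT. In the 6 photosynthesis genes, 7 SPL factors and 5 flowering genes 0 had an unadjusted p under 0.05, with medians of 0.11 and -0.03 in the first 2 lists.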
